A study of Homo sapiens with 4 samples.

Results

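The genes described here are 60 genes of DNA replication and mitosis, taken by their symbols from the annotation of a human bead array. They comprise 32 mitotic genes, which act when chromosomes are condensed, attached to the spindle and pulled apart, and 28 S-phase genes, which open replication origins, copy DNA or supply its building blocks. The array held 88 probes for them among 47321, and 57 of the 60 genes (all 32 mitotic and 25 S-phase genes) had a probe bright enough to test. The RNA came from the established breast cancer line MDA-MB453, with 2 arrays of GFP-positive cells, labelled cancer stem-like, and 2 arrays of GFP-negative cells, labelled non-stem-like. No treatment, genotype or age distinguishes the groups in the labels, both came from culture in medium with serum, and what drives the green fluorescent protein (GFP) is not stated in the labels. The series text describes a GFP-positive and a GFP-negative preparation from each of 2 days and also says that RNA batches were combined, so whether an array holds RNA of a single day is not settled. Separate cultures are not stated for the replicates, and the p-values therefore reflect array-to-array spread that may be technical.

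Between 17400 and 18197 probes per array were detected above the negative controls. Pearson's r across tested probes was 0.991 within the GFP-positive group and 0.987 within the GFP-negative group, and between 0.843 and 0.856 across groups. Of 12 markers of luminal and apocrine breast cells, 11 had a named probe and 9 were tested, with 4 higher and 2 lower in GFP-positive cells. The called share was 66.7%, beside 42.6% of all named genes. The keratin genes KRT8 and KRT19 were 36.3-fold and 9.18-fold higher, and MLPH, which encodes melanophilin, was at least 45.6-fold higher (adjusted p of 2.12e-05, 2.94e-05 and 6.69e-07). KRT18, another keratin gene, was dim (mean log2 signals of 6.55 and 6.16) and did not pass (limma adjusted p = 0.202). FOXA1, a luminal transcription factor, was 1.92-fold lower (adjusted p = 0.0126). The epithelial adhesion gene EPCAM was bright in both groups (log2 signal 14.06 ± 0.12 and 13.46 ± 0.22, SD, n = 2) and passed as higher in GFP-positive cells (limma adjusted p = 0.0411). ERBB2, which encodes the receptor HER2, had 10.70 ± 0.05 in GFP-positive and 12.16 ± 0.09 in GFP-negative cells, and passed as lower (limma adjusted p = 0.000504). The probes of GATA3 and TFF3, both luminal markers, reached the detection limit in neither group on both arrays. Of 8 fibroblast and endothelial markers, 3 were tested. All 3 passed the detection filter through the GFP-negative arrays alone, so a lower reading in GFP-positive cells was nearly fixed by that filter. COL1A1 was lower by at least 1.89-fold, COL1A2 by at least 3.95-fold and COL3A1 by at least 5.92-fold. DCN, LUM, PECAM1, CDH5 and VWF were not tested. In the same way MLPH passed the filter through the GFP-positive arrays alone. Of 7 leukocyte markers 3 were tested, with none past the threshold, and PTPRC was not tested. The part of these marker differences in the results below was not tested.

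A cell that divides must copy its genome once and then share it between its daughters. In G1 phase the MCM helicase is loaded onto origins by CDC6 and CDT1, and at the start of S phase CDC45 and the GINS complex switch it on so that polymerases, with the sliding clamp PCNA, can copy DNA. In mitosis the kinase CDK1 with cyclin B starts chromosome condensation, the spindle checkpoint waits until every chromosome is attached, and the anaphase-promoting complex then destroys securin and the cyclins. In human cells, transcription of these genes is known to be timed by E2F factors, which act on many S-phase genes, and by the DREAM and MYB-MuvB complexes, which act through CHR elements, often near CCAAT boxes, on many mitotic genes. Such genes are widely used as a readout of how many cells in a population are cycling.

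The promoters show how the mitotic and S-phase genes differ in sequence, apart from any measurement on the arrays. Promoters were read from RefSeq (GRCh38.p14), from 250 bases before to 50 after the first listed start of each gene, and 52 of the 60 genes matched. The CHR letters searched were TTTGAA or else TTCGAA, and the CCAAT box was searched by its own letters. The E2F letters were TTCCCGC or else TTCGCGC or else TTGCCGC or else TTGGCGC. Each was searched on either strand, and matches of different motifs were counted separately even where they overlapped. A CHR match was found in 17 of 27 mitotic promoters (63%), in 2 of 25 S-phase promoters (8%) and in 13.5% of 15843 protein-coding promoters. For E2F the order was turned round, with 7 of 27 mitotic promoters (25.9%), 20 of 25 S-phase promoters (80%) and 17.1% of protein-coding promoters. CCAAT matches were found in 22 of 27 mitotic (81.5%) and 14 of 25 S-phase promoters (56%), against 36.4% of protein-coding promoters. CHR and CCAAT matches occurred together in 16 mitotic promoters (59.3%) and in 2 S-phase promoters (8%), against 5.57%. With every listed start counted, CHR matches were in 58.3% of 36 mitotic and 6.45% of 31 S-phase promoters. A match is only a run of letters and is not a measured binding site. The bar plot of motif shares shows the contrast.

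**Figure D1:**
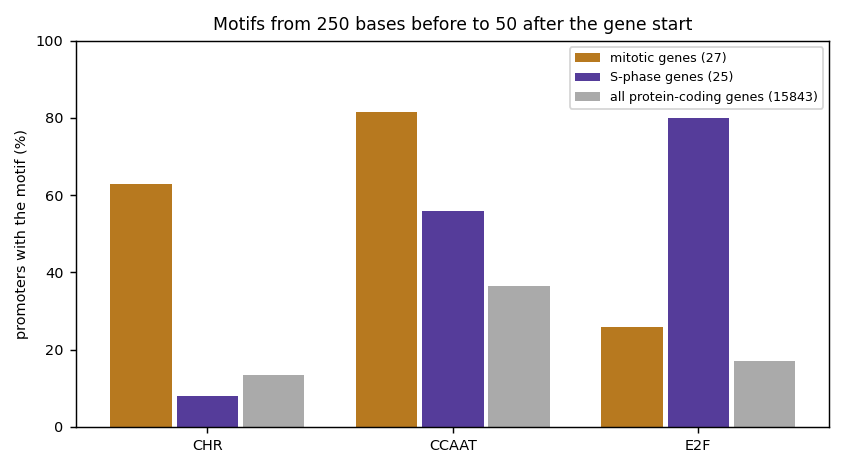
Share of promoters (y axis, percent, from 0 to 100) that hold a CHR, CCAAT or E2F match, for 27 mitotic genes, 25 S-phase genes and 15843 protein-coding genes. CHR stands at 63% for mitotic and 8% for S-phase genes, and E2F at 25.9% and 80%.

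The 250 bases before the start are printed for 4 genes, 5′ to 3′ on the gene's strand, with matches in capitals. In each class they are the gene with the largest called difference and the brightest gene that missed the threshold, so that a gene that differed stands beside a gene that did not pass. TOP2A lies on the minus strand (chr17:40417897-40418146), CDC20 on the plus strand (chr1:43358731-43358980), POLA2 on the plus strand (chr11:65261712-65261961) and MCM3 on the minus strand (chr6:52284743-52284992).
TOP2A: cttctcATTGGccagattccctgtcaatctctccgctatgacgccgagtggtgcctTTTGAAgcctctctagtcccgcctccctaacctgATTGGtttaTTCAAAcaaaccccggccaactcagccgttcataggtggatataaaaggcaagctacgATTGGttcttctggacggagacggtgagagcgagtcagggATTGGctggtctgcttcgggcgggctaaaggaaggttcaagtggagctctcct
CDC20: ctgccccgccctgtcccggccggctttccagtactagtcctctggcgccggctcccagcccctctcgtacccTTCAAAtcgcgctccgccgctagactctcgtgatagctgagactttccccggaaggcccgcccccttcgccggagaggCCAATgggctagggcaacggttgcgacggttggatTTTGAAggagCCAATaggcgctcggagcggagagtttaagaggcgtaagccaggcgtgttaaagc
POLA2: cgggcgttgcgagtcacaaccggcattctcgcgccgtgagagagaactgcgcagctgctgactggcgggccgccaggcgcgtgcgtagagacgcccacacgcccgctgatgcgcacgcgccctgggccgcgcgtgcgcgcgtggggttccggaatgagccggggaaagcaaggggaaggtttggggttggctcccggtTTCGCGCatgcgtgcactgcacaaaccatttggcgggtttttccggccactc
MCM3: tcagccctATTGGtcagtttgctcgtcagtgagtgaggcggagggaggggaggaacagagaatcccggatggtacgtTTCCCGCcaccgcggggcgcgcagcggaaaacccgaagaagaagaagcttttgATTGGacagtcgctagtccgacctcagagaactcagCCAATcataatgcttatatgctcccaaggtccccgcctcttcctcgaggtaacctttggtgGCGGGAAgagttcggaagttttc
In TOP2A, CHR letters begin at -194 and -151 and CCAAT letters at -244, -160, -93 and -53, counted back from the base before the start. CDC20 carries the same motifs, with CHR letters at -178 and -65 and CCAAT letters at -100 and -55. POLA2 has a single E2F match at -52, and MCM3 has E2F letters at -173, -23 and -3, of which the last runs past the start and is not printed, and CCAAT letters at -242, -120 and -84. TOP2A, which was called lower, and CDC20, which did not pass the threshold, thus hold both motifs. Among mitotic promoters, CHR and CCAAT matches occurred together in 5 of 6 genes called lower (83.3%). They did so in 11 of 20 genes that did not pass (55%). Whether the motifs go with the difference between groups was not tested.

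The comparison asks whether stem-like cells of the line express the genes of cell division at another level than the remaining cells. Most of these genes did not pass. Of the 57 tested genes, 11 were lower and 1 was higher in GFP-positive cells, and 45 did not pass (limma moderated test, Benjamini-Hochberg adjusted p of 0.05 over all 18098 tested probes). The background is high, since 40.5% of all tested probes passed, 21.7% lower and 18.8% higher. With each named gene represented by its brightest probe, as here, the background was 42.6%, with 22.4% lower and 20.3% higher. The genes called lower make up 19.3% of those tested, close to either background, so their number is not a result about this set. The 1 gene called higher makes up 1.75%, beside 18.8% of all tested probes and 20.3% of named genes. Among the 4525 brightest tested probes 13.5% were called higher. The count of 1 became 3 with no background correction, 4 with an intensity trend and 0 with no detection filter. With no detection filter only 11.7% of all probes were called in either direction. Whether the share of genes called higher differs from the background was not tested. No test of the set was made, so no conclusion about the set is drawn from this count. In bulk RNA, fewer dividing cells and less RNA per cell cannot be told apart.

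The mitotic genes leaned lower and the S-phase genes were centred near 0. The median log2 difference, GFP-positive minus GFP-negative, was -0.32 over 32 mitotic genes and -0.07 over 25 S-phase genes, beside -0.05 over all tested probes. A difference below 0 was seen for 26 of 32 mitotic and 14 of 25 S-phase genes, and for 53.2% of all tested probes. Calls numbered 7 lower and 1 higher among the mitotic genes and 4 lower and 0 higher among the S-phase genes. At an unadjusted p under 0.05, 10 of 32 mitotic and 6 of 25 S-phase genes passed in either direction. Even the stricter adjusted threshold was passed by 40.5% of all tested probes, so these counts are no excess over the background. The groups were separated without overlap for 25 of 32 mitotic and 12 of 25 S-phase genes, against 72.6% of all tested probes. In 21 mitotic and 7 S-phase genes both GFP-positive arrays were the lower ones, as in 39% of all tested probes. A call with over 2-fold difference was made for 5 mitotic and 3 S-phase genes, all lower, against 10.6% of tested probes lower and 21.7% in either direction. For 42 of the 45 genes that did not pass, the 95% interval of the difference lay within a 2-fold change either way, as it did for 86.1% of all probes that did not pass, or 51.3% of all tested probes. The difference between the mitotic and the S-phase genes was not tested.

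**Figure D2:**
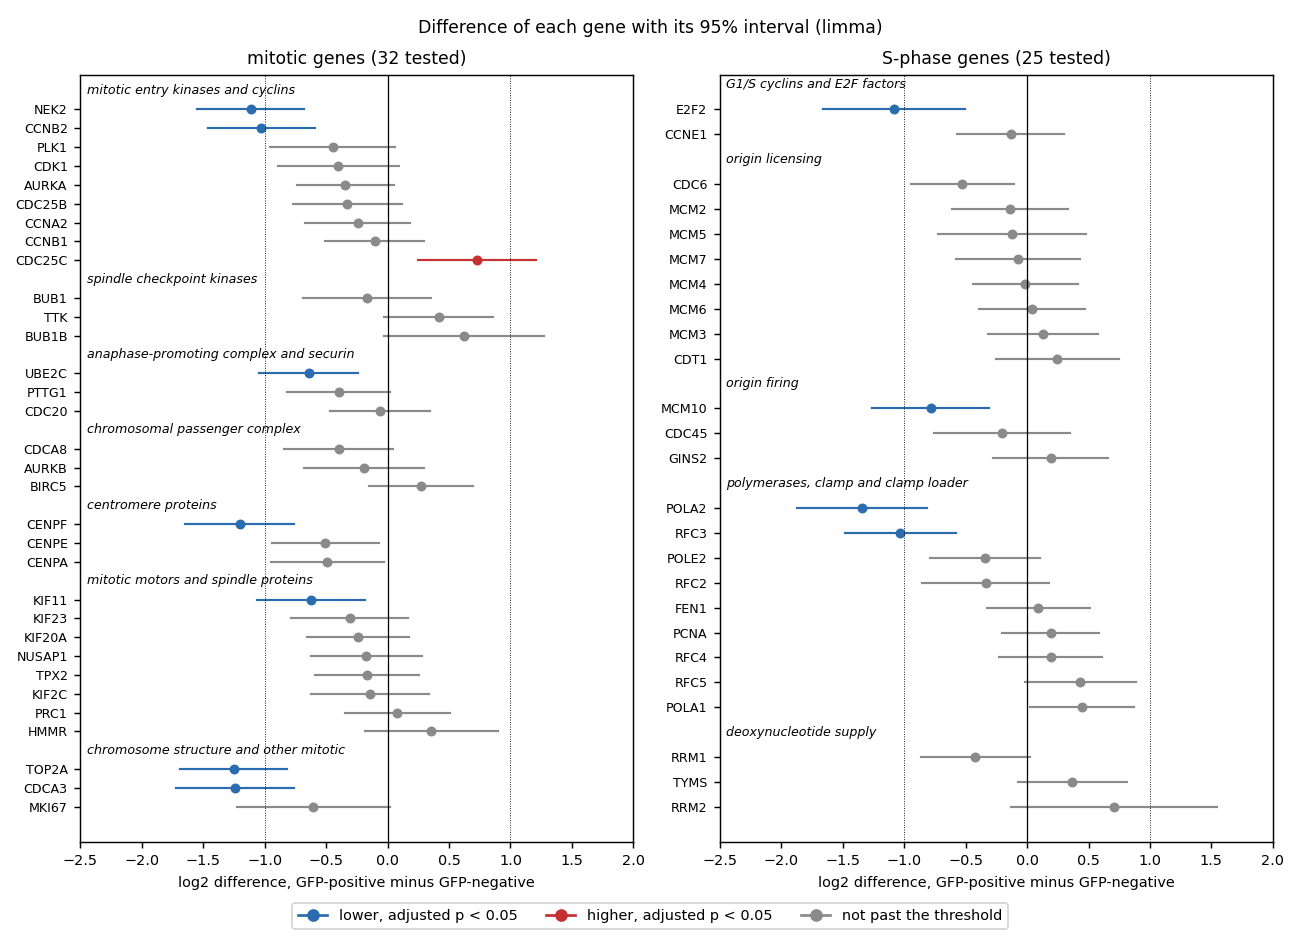
Log2 difference, GFP-positive minus GFP-negative (x axis), for each tested gene (y axis, by role), with its 95% interval from limma as a line and 2-fold marked by dotted lines. Blue genes passed lower, the single red gene passed higher, and 45 grey genes did not pass, with the mitotic genes at a median of -0.32 and the S-phase genes at -0.07.

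Among the kinases and cyclins of mitotic entry, CCNB2, which encodes a B-type cyclin, had log2 signals of 12.19 and 11.98 in GFP-positive cells against 13.004 and 13.22 in GFP-negative cells (replicates 1 and 2 in that order, as throughout). Both GFP-positive arrays lay below both others, a 2.04-fold lower level (-1.03 ± 0.19, SE, adjusted p = 0.00406). CCNB1, the other B-type cyclin of the set, had a difference of -0.10 with a 95% interval from -0.51 to 0.30. NEK2, a kinase that separates centrosomes, read 9.80 and 9.66 against 10.71 and 10.98, again without overlap, and was 2.16-fold lower (-1.11 ± 0.19, adjusted p = 0.00279). Its other probe was also lower, with -0.93 and an adjusted p of 0.0128. CDC25C, a phosphatase that activates CDK1, was the gene called higher, with 9.26 and 8.82 against 8.30 and 8.31. The CDC25C difference was 0.73 ± 0.20 (1.66-fold, adjusted p = 0.0257), and its other probe gave 0.88 (adjusted p = 0.0304). The call on CDC25C was lost without GFP-positive replicate 1, without either GFP-negative replicate and when all probes were tested, with adjusted p up to 0.190. At the first listed start of CDC25C no CHR match was found, while 2 of its 4 listed starts hold it.

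The other 6 genes of mitotic entry did not pass and all had differences below 0. CDK1, the kinase itself, read 11.97 and 11.73 against 12.05 and 12.46, a difference of -0.40 (interval -0.90 to 0.09). CCNA2, cyclin A, had -0.24 (interval -0.67 to 0.18). The phosphatase CDC25B had -0.33, the polo kinase PLK1 had -0.45 and the centrosomal kinase AURKA had -0.34. All these arrays were ordered by group without overlap, as were those of 72.6% of all tested probes, and the differences were too small for the threshold.

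The 3 spindle checkpoint kinases did not pass. TTK, which starts checkpoint signalling at kinetochores, had 11.46 and 11.25 against 10.81 and 11.07, a difference of 0.42 (interval -0.03 to 0.86). BUB1, which recruits checkpoint proteins, had -0.17, and BUB1B, part of the inhibitor of the anaphase-promoting complex, had 0.62 (interval -0.03 to 1.27). The upper limit for BUB1B therefore exceeds 2-fold.

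Around the anaphase-promoting complex, UBE2C, its ubiquitin-conjugating enzyme, read 13.24 and 13.11 against 13.82 and 13.81. It was 1.56-fold lower (-0.64 ± 0.17, adjusted p = 0.0221), a call that ended when GFP-positive replicate 1 or 2 or GFP-negative replicate 1 was left out. CDC20, the activator of that complex, had 14.07 and 14.04 against 14.20 and 14.04, with overlapping groups and a difference of -0.06 (interval -0.47 to 0.35). PTTG1, which encodes securin, had -0.40 on each of its probes and did not pass. The 3 genes of the chromosomal passenger complex, which corrects wrong attachments, did not pass either. The kinase AURKB had -0.19, the subunit CDCA8 had -0.40 and BIRC5, which encodes survivin, had 0.27.

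CENPF, a large protein of the outer kinetochore, had 11.45 and 11.21 against 12.42 and 12.64. The groups did not overlap, and CENPF was 2.30-fold lower (-1.20 ± 0.19, adjusted p = 0.00203). CENPA, the histone variant that marks centromeres, had -0.49 (adjusted p = 0.0838). CENPE, a kinetochore motor, had -0.51 on its brighter probe (adjusted p = 0.0648) and -0.71 on its dimmer probe, which passed (adjusted p = 0.0203).

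Of the 8 motors and spindle proteins, KIF11, the motor that pushes spindle poles apart, passed, with 10.88 and 10.55 against 11.32 and 11.35. It was 1.54-fold lower (-0.62 ± 0.19, adjusted p = 0.0344), and its dimmer probe gave -0.98 (adjusted p = 0.0044). The call of the brighter KIF11 probe was lost when any of the 4 arrays was left out and when all probes were tested, with an adjusted p of up to 0.245. The other 7 genes ran from -0.31 for KIF23, a motor of the central spindle, to 0.36 for HMMR, a spindle-binding protein. Between them stood the motors KIF20A (-0.24) and KIF2C (-0.14), the spindle assembly factors TPX2 (-0.17) and NUSAP1 (-0.17), and the midzone bundler PRC1 (0.08). All 7 intervals lay within 2-fold.

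The largest mitotic difference was that of TOP2A, the topoisomerase that untangles replicated chromosomes, with 12.48 and 12.45 against 13.57 and 13.87. Both GFP-positive arrays were more than a log2 unit below both others, and TOP2A was 2.38-fold lower (-1.25 ± 0.19, adjusted p = 0.00156). CDCA3, which helps degrade the mitosis inhibitor WEE1, read 10.01 and 9.63 against 11.19 and 10.93 and was 2.36-fold lower (-1.24 ± 0.21, adjusted p = 0.00272). MKI67, the proliferation antigen Ki-67 that coats mitotic chromosomes, was dim, with 8.75 and 8.05 against 9.19 and 8.83. Its difference of -0.61 did not pass (adjusted p = 0.109), and passed with the replicate pairing as a block, at an adjusted p of 0.0255. The plot of called genes by array shows all 12.

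**Figure D3:**
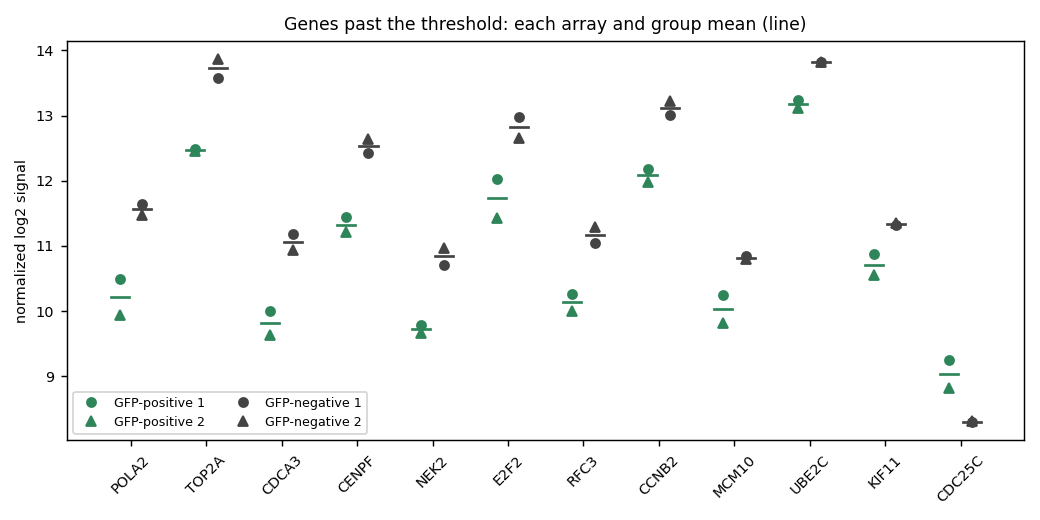
Normalized log2 signal (y axis) of the 12 genes past the threshold (x axis) on each of 4 arrays, with circles for replicate 1, triangles for replicate 2, green for GFP-positive, grey for GFP-negative and a line at each group mean. In 11 genes both GFP-positive arrays lie below both GFP-negative arrays, and in CDC25C both lie above.

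None of the 8 origin licensing genes passed, and 7 of them had overlapping groups, with CDC6 the exception. Over all tested probes, the groups did not overlap for 72.6%. MCM3, a subunit of the replicative helicase, read 14.24 and 13.92 against 13.88 and 14.01, so the groups overlapped, with a difference of 0.13 (interval -0.32 to 0.58). MCM7, another subunit, had 13.86 and 13.48 against 13.92 and 13.57, a difference of -0.07 (interval -0.58 to 0.43). The differences of the remaining helicase subunits were -0.14 for MCM2, -0.01 for MCM4, -0.12 for MCM5 and 0.04 for MCM6. All 6 helicase subunits had overlapping groups and intervals within 2-fold. CDT1, which loads the helicase, had 0.25. CDC6, its partner in loading, was dim, at 7.57 and 7.45 against 8.14 and 7.93, without overlap and just short of the threshold (-0.53 ± 0.18, adjusted p = 0.0518), and it passed with the replicate pairing as a block, at an adjusted p of 0.0348. MCM7 had 2 dimmer probes, and the dimmest, detected on 3 arrays, was called higher (0.69, adjusted p = 0.0243), unlike its bright probe. That dimmest probe passed the detection filter through the GFP-positive arrays alone, so a higher reading was favoured by that filter.

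At the step of origin firing, MCM10, which helps activate the helicase, had 10.24 and 9.82 against 10.84 and 10.79. It was 1.72-fold lower (-0.79 ± 0.20, adjusted p = 0.0185), and its other probe gave -0.81 (adjusted p = 0.012). The MCM10 call was lost when GFP-positive replicate 2 or GFP-negative replicate 1 was left out and when all probes were tested. CDC45, which rides with the helicase, had -0.20, and GINS2, a subunit of the GINS complex, had 0.19, and neither passed. GINS1 was detected on no array.

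Within the polymerases, the clamp and its loader, single subunits differed while their partners did not pass. POLA2, the regulatory subunit of the polymerase that lays down primers, read 10.49 and 9.94 against 11.65 and 11.47. It was 2.54-fold lower (-1.35 ± 0.23, adjusted p = 0.00285), the largest difference of the 57 genes. POLA1, the catalytic subunit of the same enzyme, had 11.21 and 10.98 against 10.67 and 10.63, the opposite order, with a difference of 0.44 (interval 0.02 to 0.87, adjusted p = 0.0865). RFC3, a subunit of the clamp loader, had 10.27 and 10.00 against 11.05 and 11.29 and was 2.04-fold lower (-1.03 ± 0.19, adjusted p = 0.00471). Of its other probes, RFC3 passed on the dimmest (-1.56) and not on the middle probe (-0.86, adjusted p = 0.0596). The other loader subunits had -0.34 for RFC2, 0.19 for RFC4 and 0.43 for RFC5, and none passed. PCNA, the clamp, read 12.51 and 12.55 against 12.33 and 12.34, a difference of 0.19 (interval -0.20 to 0.59), and its dimmer tested probe had -0.35. FEN1, the flap nuclease of lagging-strand synthesis, had 0.09, and POLE2, a subunit of the leading-strand polymerase, had -0.34.

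The 3 genes of deoxynucleotide supply did not pass. RRM1, the large subunit of ribonucleotide reductase, had 13.34 and 13.07 against 13.53 and 13.72, a difference of -0.42 (interval -0.87 to 0.02). TYMS, which makes thymidylate, had 13.32 and 13.22 against 12.74 and 13.06, a difference of 0.37 (interval -0.08 to 0.81). RRM2, the small reductase subunit that is made in S phase, read 12.08 and 11.66 against 10.60 and 11.73. The GFP-negative RRM2 values were over a log2 unit apart, so its difference of 0.71 has an interval from -0.13 to 1.54.

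Among the regulators of S-phase entry, E2F2, a transcription factor that activates S-phase genes, had 12.03 and 11.44 against 12.98 and 12.65. It was 2.12-fold lower (-1.08 ± 0.25, adjusted p = 0.0112), a call lost when GFP-positive replicate 2 or GFP-negative replicate 1 was left out and when all probes were tested. CCNE1, a cyclin that partners CDK2 at that step, had overlapping groups and -0.13 (interval -0.57 to 0.30). E2F1, the best-known activating E2F, and CCNE2, the other E-type cyclin, were detected on no array, and each has a single probe here, so nothing can be said of their difference.

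By their brightest tested probes, these genes were bright. The 4525 brightest tested probes, above a mean log2 signal of 10.4, held 49 of the 57 genes. A probe's brightness depends on its sequence as well as on its transcript, so this is no ranking of transcripts. Of those 49 genes 10 were called (20.4%), all lower, while 29.6% of the 4525 bright probes were called, 16.1% lower and 13.5% higher. By class, 6 of 26 mitotic genes (23.1%) and 4 of 23 S-phase genes (17.4%) among them were called, with median differences of -0.28 and -0.01 beside -0.01 for all bright probes. The median absolute log2 difference was 0.31 for the 49 genes and 0.34 for all bright probes, and 14.3% and 10.6% exceeded 2-fold. Whether the share of calls differs from that of other bright probes was not tested.

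**Figure D4:**
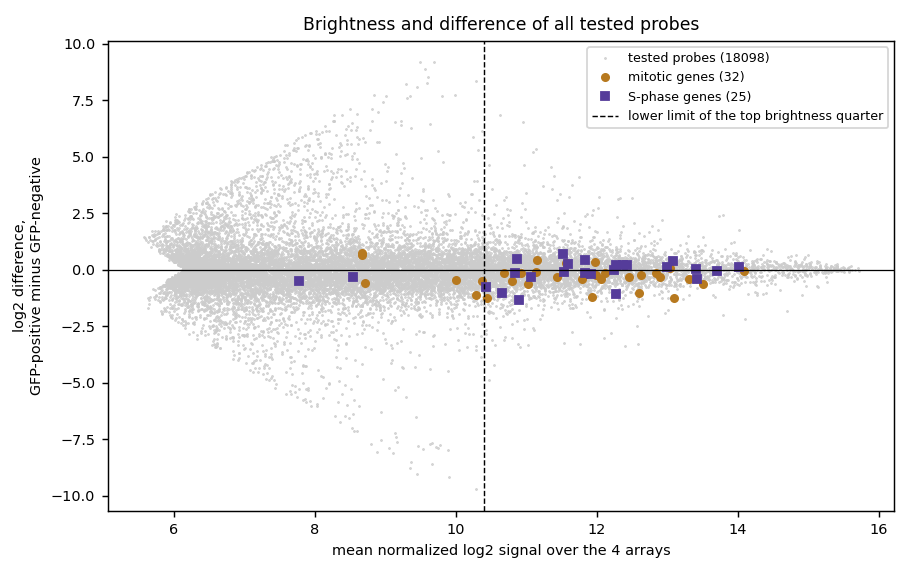
Mean normalized log2 signal over the 4 arrays (x axis) against the log2 difference, GFP-positive minus GFP-negative (y axis), for 18098 tested probes (grey), 32 mitotic genes (circles) and 25 S-phase genes (squares). Of the 57 genes 49 lie right of the dashed line at 10.4, and all lie between -1.35 and 0.73, while other probes spread further.

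The arrays of the GFP-positive group also differed from each other in these genes. In GFP-positive replicate 2, 24 of 25 S-phase genes and 26 of 32 mitotic genes read lower than in replicate 1, while 51.2% of all tested probes did. The median of replicate 2 minus replicate 1 was -0.29 for S-phase and -0.20 for mitotic genes, against -0.01 for all tested probes and also for the 4525 bright probes. In the GFP-negative group the same difference was -0.02 for S-phase and 0.15 for mitotic genes, against -0.03 for all tested probes. For the S-phase genes this gap within the GFP-positive group exceeds their median difference between groups of -0.07, and for the mitotic genes it is smaller than theirs of -0.32. Taken by replicate number, the mitotic median difference between groups was -0.16 for replicates 1 and -0.42 for replicates 2, and the S-phase median was 0.06 and -0.13. Both mitotic values are below 0, whereas the S-phase values change sign. Without GFP-positive replicate 2, 7 of the 57 genes were lower and 2 higher, and without GFP-negative replicate 1, 7 were lower and 0 higher. The part of the replicate difference in the calls was not tested.

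**Figure D5:**
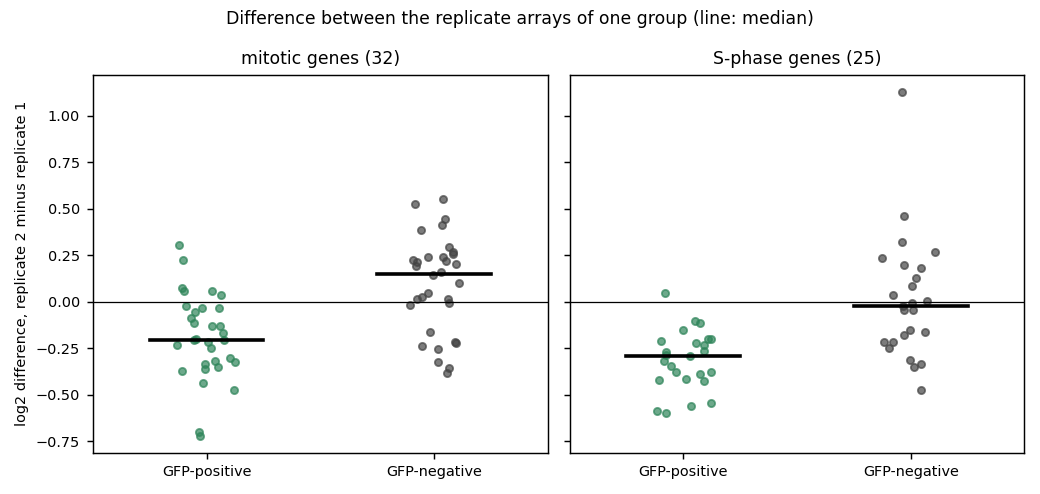
Log2 difference between the arrays of a group, replicate 2 minus replicate 1 (y axis), for each mitotic gene (left) and S-phase gene (right), with GFP-positive in green, GFP-negative in grey and the median as a line. In the GFP-positive group 24 of 25 S-phase genes lie below 0, with a median of -0.29.

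Other genes of the same pathways were taken from lists chosen beside the set. Of 68 other mitotic genes 66 were tested, with 17 lower, 3 higher and 46 not past, and a median difference of -0.27. MYBL2, among the 17, passed the detection filter through the GFP-negative arrays alone, so its lower reading was nearly fixed by that filter. The centromere genes CENPU (-1.57 ± 0.25, adjusted p = 0.00234) and CENPL (-1.43 ± 0.18, adjusted p = 0.000729), the condensin subunit SMC2 (-1.33 ± 0.21, adjusted p = 0.00214) and the spindle protein TACC3 (-1.08 ± 0.20, adjusted p = 0.00419) had the largest called differences. The 3 higher genes, named after their values were seen, were the checkpoint gene MAD2L1 (0.86), the centromere gene CENPN (1.00) and the motor KIF18A (1.01). Of 46 other DNA replication genes 42 were tested, with 6 lower, 4 higher and 32 not past, and a median of -0.02. Largest there were the reductase subunit RRM2B (1.70 ± 0.44, adjusted p = 0.0190), thymidine kinase TK1 (1.14 ± 0.18, adjusted p = 0.00224), the origin recognition subunit ORC3 (0.97 ± 0.18, adjusted p = 0.00414) and the firing factor TICRR (-0.89 ± 0.19, adjusted p = 0.00932). The 25.8% of other mitotic genes and 14.3% of other replication genes called lower stand beside 21.7% of all tested probes and 22.4% of named genes. Called higher were 4.55% and 9.52%, beside 18.8% of all tested probes and 20.3% of named genes. Whether these shares differ from the background was not tested.

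A further list held cyclin-dependent kinase inhibitors, pocket proteins, D-type cyclins, G1 kinases, other E2F factors and MuvB subunits. Of its 24 tested genes 5 were higher and 6 lower, or 45.8% called, near the background of 42.6% of named genes. CDKN1C, among the 5, passed the detection filter through the GFP-positive arrays alone. Its mean log2 signals of 6.88 and 6.15 were near the lowest detected values, so a higher reading was favoured by that filter. No tested pocket protein (RB1, RBL1, RBL2) or D-type cyclin (CCND1, CCND3) passed, and CCND2 was not tested. CDKN1A, which encodes the CDK inhibitor p21, read 13.63 and 14.46 against 7.32 and 7.07 (6.85 ± 0.28, adjusted p = 2.4e-06). CDK6, a G1 kinase, was higher by 3.56 ± 0.20 on the log2 scale, and E2F5, a repressive E2F, and LIN9, a MuvB subunit, had -1.38 ± 0.23 and -1.26 ± 0.23. No relation between these genes and the division genes was tested.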

How the data were processed

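Each of 4 Illumina bead arrays was hybridised with biotin-labelled cRNA, per the labels' protocols, and arrays were grouped by title. The deposited intensity table holds linear bead signals, marked as not normalized per the file headers. It also holds the deposited detection p-value of every probe. The submitters' processing notes name GenomeStudio 2009.2, and any background subtraction in it is not stated. The deposited value table holds log2 values equal to quantile-normalized log2 signals within 5e-09.

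Signals were normalized in R 4.3.3 by neqc of limma 3.58.1 (offset 16, then quantile scaling and log2). Testing covered 18098 probes whose detection p was under 0.05 on each array of a group. lmFit and eBayes were used, 2-sided, with 2 residual and 5.31 prior degrees of freedom and Benjamini-Hochberg adjustment at 0.05, and were tested on simulated data. Exact permutation of 2 arrays against 2 could give no p under 0.333.

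A gene is its brightest tested probe. A fold against a group with an undetected array is a bound ("at least"), with signals under the lowest detected value of an array (6.09 to 6.17) raised to it. Of all probes 30111 had 1 symbol, 8 had several and 17202 had none here. The members, roles and lists were chosen with earlier results of these data known. The naming rule takes all called members, the 2 brightest of a role without calls, undetected members, and up to 4 called genes of each list, and the remaining members are named so that each is accounted for. The series text pairs the groups by day. Same-numbered arrays deviated together (r = 0.219 over tested probes), and the pairing was a block in an alternative. Other alternatives changed background, scaling, filter, variance model, probe choice and arrays. The number of arrays limits precision.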

Additional observations from a re-analysis of the deposited data

How the results depend on the processing

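None of the 12 called genes changed direction in the 13 alternatives. Genes that did not pass could change sign, as MCM5 did (-0.40 to 0.16). The signals with no background correction and the deposited table hold the same values, so they are no separate checks. Of the genes called lower, CCNB2, NEK2, CENPF, TOP2A, CDCA3, RFC3 and POLA2 passed in all 13, and KIF11, UBE2C, E2F2, MCM10 and the higher CDC25C did not. Over genes and alternatives, 688 values kept their side of the threshold, 18 lost it and 35 gained it. The genes lower numbered 11, and 17 under 75th percentile scaling, 12 of them mitotic against 7. That scaling also moved the background: 24.7% of all tested probes were lower, with a median difference of -0.12, against 21.7% and -0.05. Of all tested probes, 42.4% were called with no background correction and 44.2% with an intensity trend. The share was 46.8% with the replicate block and 11.7% with no detection filter, against 40.5%. The genes higher numbered 1, and 3 both for signals with no background correction and for the deposited table, 4 with an intensity trend, 2 with probes averaged and 0 with no detection filter. The S-phase genes lower numbered 4, and 2 with no detection filter. S-phase genes higher numbered 0, and 2 with no background correction as in the deposited table, 3 with an intensity trend and 1 with probes averaged (limma, as in every count here). No mitotic gene was higher with no detection filter. Leaving out each array in turn gave 7 to 11 genes lower, of which 5 to 6 were mitotic and 2 to 5 S-phase, and 0 to 2 higher, of which 0 to 2 were mitotic and 0 to 1 S-phase. All probes called then ran from 4532 (without GFP-positive replicate 2) to 6937, against 7322, with the lone array assumed to vary like the other group. Over all alternatives the mitotic median ran from -0.47 (75th percentile scaling, with -0.12 over all tested probes) to -0.25. The S-phase median ran from -0.23 to 0.11, was -0.22 under 75th percentile scaling, and was above 0 when GFP-positive replicate 2 (0.11) or GFP-negative replicate 1 (0.05) was left out. With the replicate block 13 genes were lower and 1 higher, MKI67 and CDC6 being added, and no other call changed. For each shift in these counts the cause was not tested. Dim genes such as MKI67 and CDC6 lie nearer to background, where precision is limited.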
